A study of Mus musculus with 2 samples.

Results

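The levels of 10 tubular injury marker genes (Havcr1, Lcn2, Krt8, Krt18, Krt19, Krt20, Sox9, Clu, Sox4 and Dcdc2a), out of 32285 genes counted, were described along the nephron of the injured mouse kidney. The genes were listed by name, and each was present once in both count matrices. The study profiled kidney cells by droplet single-cell RNA sequencing on day 14 after clamping of 1 renal artery, an ischaemia-reperfusion injury (IRI), and asked what partial loss of PHD3 in endothelium does to repair of the kidney. The control library came from Cre- mice and the other from Cdh5-CreERT2; Phd3f/+ mice, called haplodeficient here, in which 1 Phd3 allele is floxed and CreERT2, switched on by tamoxifen, is driven by the promoter of the endothelial cadherin gene Cdh5. Both groups had the same injury and 4 tamoxifen injections, and both libraries are in batch 1. The Cre is therefore not driven in tubules, and every tubule value below is from cells in which the labels name no deletion. Whether the Cre- mice carry a floxed allele, the number of animals in a library, and their strain, sex and age are not given in the sources used here.

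With 1 library per group there was no replicate and no test between groups. Every 95% interval below covers counting error only, so that a difference between the libraries cannot be told apart from a difference between animals or preparations. The libraries held 134190236 (control) and 114668145 (haplodeficient) counts of unique molecular identifiers (UMIs), and 8737 and 9222 barcodes were kept as cells. Both libraries shared 28 of the kept barcodes, and leaving out the 28 cells of the segments below that carried one moved no member's log2 ratio by more than 0.0374. Mitochondrial UMIs stood apart: they took 10.2% of the median control cell and 2.69% of the median haplodeficient cell. Egln3, which encodes PHD3, was 25.04 counts per 1000000 UMIs (CPM) in control and 23.4 CPM in haplodeficient endothelium-like cells (44 and 99 UMIs). A 3′ tag may lie outside the floxed part, so this does not check the labels.

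Injured tubule cells lose transporters and switch on a set of genes that mark damage and repair. Havcr1 encodes KIM-1, a surface receptor with which injured proximal tubule cells take up dead cells. Lcn2 encodes NGAL, a secreted protein that binds iron-carrying siderophores, and Clu the secreted chaperone clusterin. Keratins 8, 18, 19 and 20 form the intermediate filaments of simple epithelia, SOX9 and SOX4 are transcription factors of developing and repairing epithelium, and Dcdc2a encodes a doublecortin-domain protein of the primary cilium. KIM-1 and NGAL are measured in urine as signs of acute kidney injury, the former known from proximal tubule and the latter from distal nephron and neutrophils.

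Cells were clustered without the 10 genes and clusters were named from marker lists that held a fixed marker for each segment. Early proximal tubule-like cells (Slc5a12, a lactate transporter) numbered 1974 (control) and 345 (haplodeficient). Late proximal tubule-like cells (Slc7a13, an amino acid transporter) numbered 1119 and 50, the latter the smallest number for which a level was computed. There were 349 and 657 descending thin limb-like cells (Fst, follistatin), and 561 and 562 thick ascending limb-like cells (Slc12a1, the furosemide-sensitive cotransporter). Distal convoluted tubule-like cells (Slc12a3, the thiazide-sensitive cotransporter) numbered 500 and 314, principal or connecting tubule-like cells (Aqp2, a water channel) 587 and 667, and intercalated-cell-like cells (Atp6v1g3, a proton pump subunit) 465 and 340. Each fixed marker was highest in its own class in both libraries. For 6 of the 7 the haplodeficient level was the lower one, down to 1239 against 199.7 CPM for Aqp2 in principal-like cells, while Atp6v1g3 was 1682 against 2002 CPM in intercalated-like cells. The intercalated-like cluster also held Aqp2, at 727 and 99.2 CPM. All 8 principal or connecting tubule markers were detected in it in both libraries, summing to 3788 and 2806 CPM. In distal convoluted tubule-like cells they summed to 437 and 661 CPM. The part of principal-like cells or their RNA in the values of the intercalated-like class was not tested. By the fixed markers alone, 311 of 587 control and 102 of 667 haplodeficient principal-like cells fell in their own class. For thin limb-like cells these were 58 of 349 and 110 of 657. For the thick ascending limb 902 and 1011 barcodes passed by marker, against 561 and 562 cells in the class.

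A pair of unnamed clusters also held tubule genes and injury markers, and they are called by their leading genes. The first, of 498 and 244 cells, was led by Havcr1, Kcnip4, C3, Ubd, Sorcs1 and Vcam1 and had Slc5a12 at 224 and 176 CPM, below the 1002 and 720.5 CPM of early proximal tubule-like cells. The second, of 492 and 616 cells, was led by Psca, Mmp7, Olfm4 and Gabrp and had Slc12a1 at 1303 and 1591 CPM, against 6413 and 5879 CPM in thick ascending limb-like cells. Both were used to place the members, outside the count of 7 segments. The number of cells in a class depends on how tissue was dissociated as well as on the kidney, and numbers were not compared between libraries.

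Most Havcr1 was not in a named segment. Of 10252 Havcr1 UMIs in control cells, 70.9% lay in the Havcr1-led cluster, and of 3433 in haplodeficient cells, 66.7%. That cluster was picked because Havcr1 was among its leading genes, so high Havcr1 there follows from the choice. Krt20 was placed alike, with 74.9% of 688 and 57.0% of 307 UMIs in that cluster. The other 8 genes lay mainly in the 7 segments: 87.7% and 90.4% of Clu UMIs, and 74.4% and 81.2% of Lcn2 UMIs, were there. Neutrophil-like cells, of a type known to make NGAL, held 0.157% and 0.696% of the Lcn2 UMIs.

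**Figure D1:**
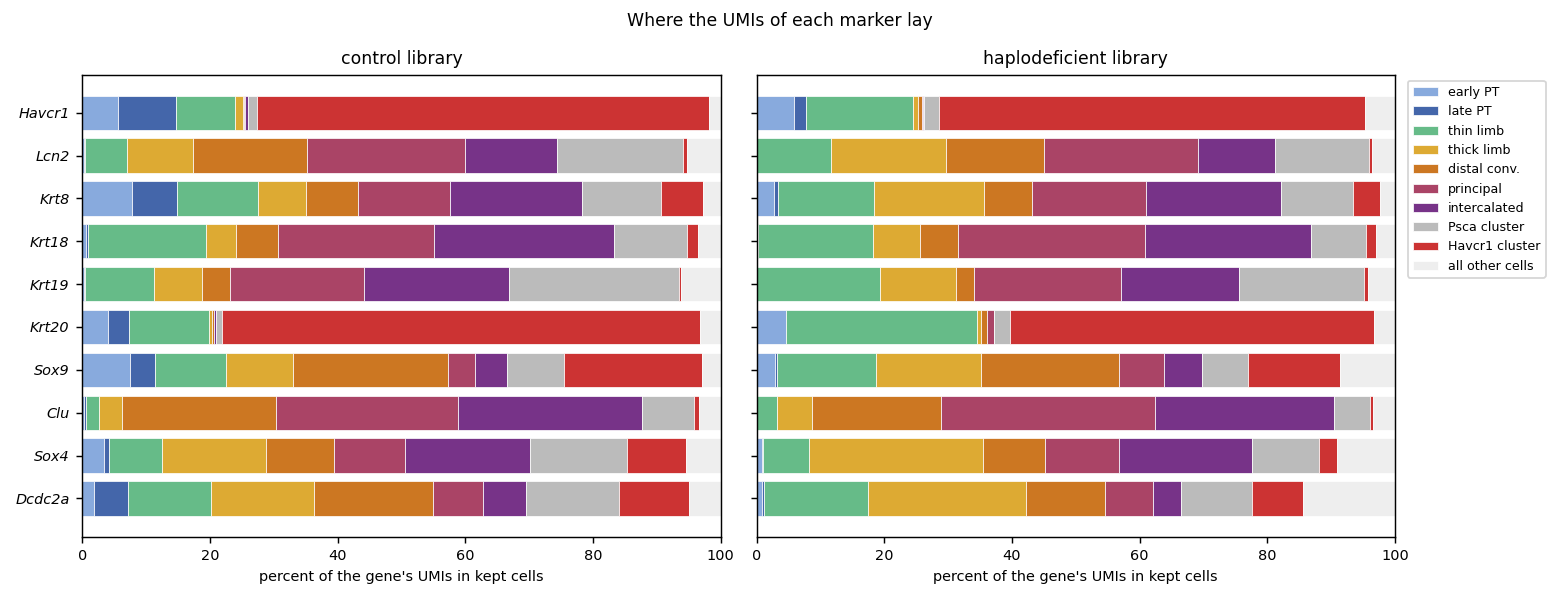
Share of each gene's UMIs (x axis, percent of its UMIs in all kept cells) by class, for the control library (left) and the haplodeficient library (right); PT is proximal tubule, and all classes are named by likeness to their markers. The Havcr1-led cluster (red), picked by its Havcr1, holds most Havcr1 and Krt20 UMIs in both libraries. The distal classes hold most Lcn2, Krt18 and Clu UMIs.

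Along the 7 segments Havcr1 kept to the proximal tubule and thin limb. In the control library it was 163 CPM in thin limb-like, 61.9 CPM in late and 24.4 CPM in early proximal tubule-like cells, levels whose counting intervals did not overlap. In the haplodeficient library the order was late proximal tubule-like (104 CPM), thin limb-like (64.6 CPM) and early proximal tubule-like (57.1 CPM), with the intervals of the last 2 overlapping. The Havcr1-led cluster stood at 883 and 541 CPM. From the thick ascending limb on, Havcr1 was between 0.206 and 12.3 CPM. The level that free RNA in the suspension would give, taken from barcodes with 1 to 100 UMIs, was 27.5% of the control and 68.1% of the haplodeficient level in thick ascending limb-like cells, and more than the measured level in principal-like cells of both libraries.

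Within the late proximal tubule-like class Havcr1 was uneven. A cluster of 84 control and 10 haplodeficient cells with Slc7a12, an amino acid transporter gene of the last part of the proximal tubule, and Akr1c18 had 456 and 392 CPM. The larger cluster of the class, of 679 and 33 cells, had 34.8 and 40.4 CPM. A cluster of 356 and 7 cells had 9.22 and 80.9 CPM. The Slc7a12 cluster thus had the highest Havcr1 of the class in both libraries, and the values of 10 and 7 cells rest on 39 and 7 UMIs. The haplodeficient class had 63 Havcr1 UMIs in all, so its place in the order above rests largely on 10 cells.

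Lcn2 and Clu were low in proximal tubule-like cells and high from the thin limb on. Havcr1 was low from the thick ascending limb on, so that thin limb-like cells held all of these genes. Lcn2 was highest in principal-like cells (2671 CPM control, 4446 CPM haplodeficient), then in distal convoluted tubule-like cells (1948 and 3857 CPM). Intercalated-like cells had 1085 and 1688 CPM, thin limb-like cells 869 and 1777 CPM, and thick ascending limb-like cells 813 and 1685 CPM. Proximal tubule-like cells of both kinds had 8.19 to 21.4 CPM, where free RNA would give 102% to 241% of the level, so that no Lcn2 of their own could be read there. Clu was ordered from principal-like (8433 and 12588 CPM) over distal convoluted tubule-like (7208 and 10447 CPM) and intercalated-like cells (5892 and 8083 CPM) to thick ascending limb-like (759 and 1059 CPM) and thin limb-like cells (737 and 978 CPM). The same order of these 5 classes held in both libraries, with thick ascending and thin limb not apart in the control. In proximal tubule-like cells Clu was at 29.2 to 51.1 CPM, of which free RNA would give 82.8% or more.

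The distal convoluted tubule-like class was split for Lcn2 and not for Clu. Its Calb1-led cluster, of 40 control and 8 haplodeficient cells, had Lcn2 at 90.7 and 23.4 CPM, and the larger cluster 2133 and 3949 CPM. Clu was 6716 and 11078 CPM in the former and 7257 and 10432 CPM in the latter. Krt8 (98.5 and 172 CPM against 617 and 879 CPM) and Sox9 (64.1 and 46.8 CPM against 250.6 and 201 CPM) were lower in the Calb1-led cluster, as Lcn2 was. The haplodeficient values of that cluster rest on 8 cells with a median of 16155 UMIs. Free RNA would give 20.4 and 54.2 CPM of Lcn2 in the whole class. The latter is above the 23.4 CPM of these 8 cells, so that no Lcn2 of their own could be read there.

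**Figure D2:**
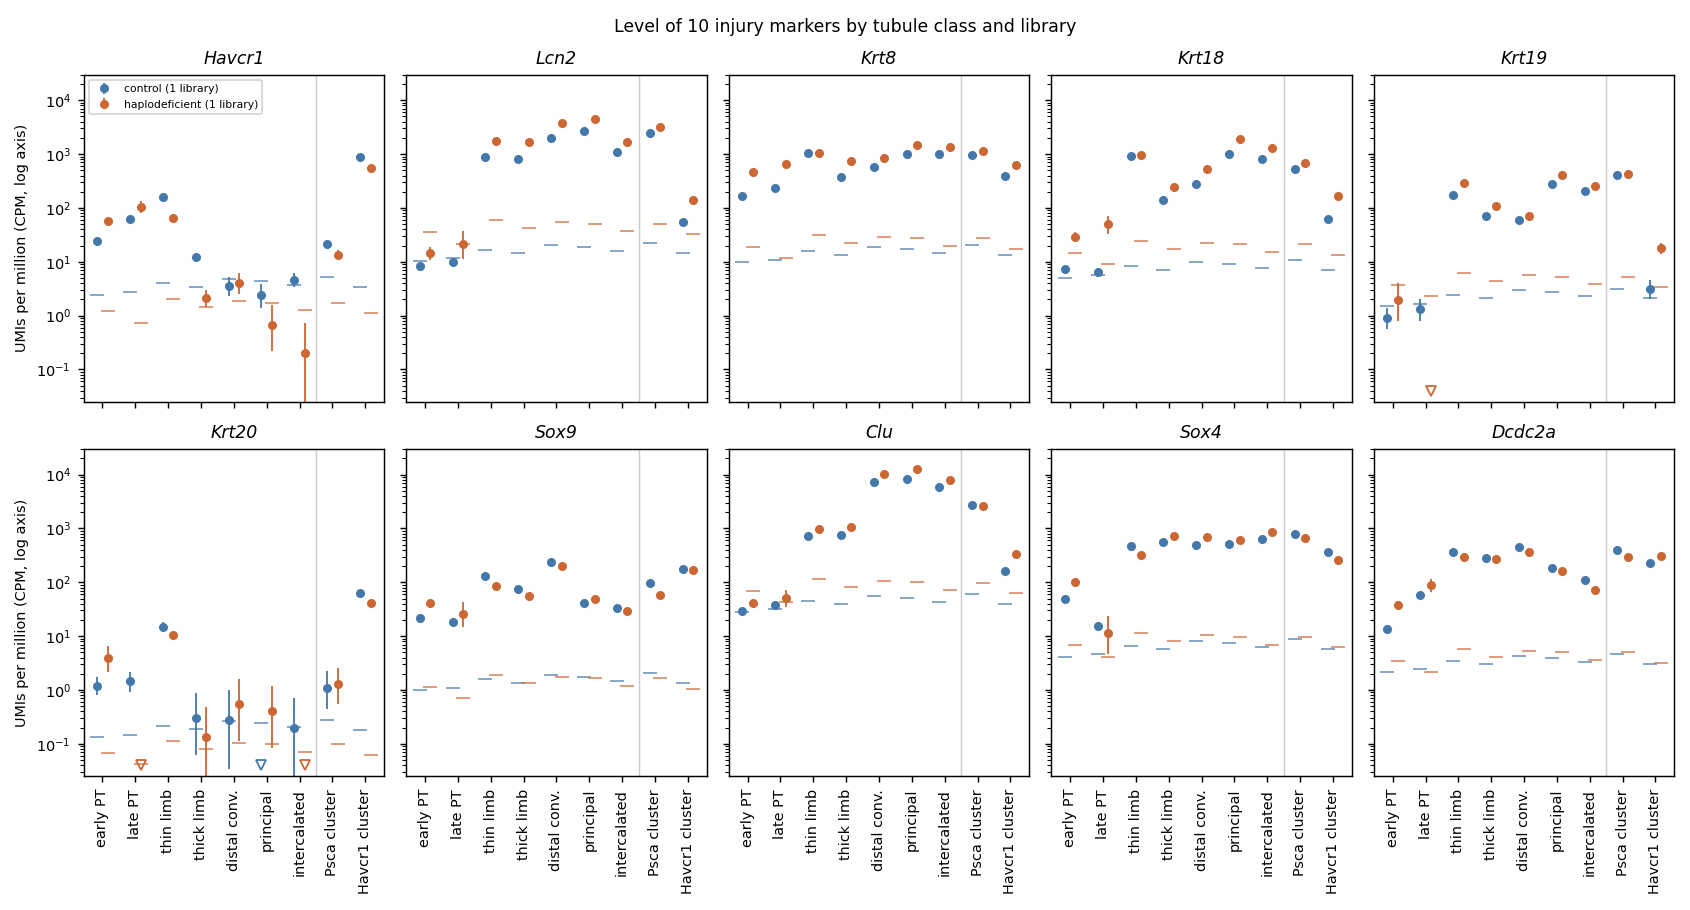
Level of each gene (y axis, CPM, log axis) in 7 segments and 2 unnamed clusters (x axis) for the control (blue) and haplodeficient (orange) library; bars are 95% counting intervals, short horizontal marks the level expected from free RNA, and open triangles a count of 0. Havcr1, by which the cluster was picked, and Krt20 peak in the Havcr1-led cluster. Lcn2 and Clu in both libraries, and Krt18 in the control, are near the free RNA mark in proximal tubule-like cells. They are higher from the thin limb on.

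Krt8 and Krt18, whose proteins pair in the filament, are neighbours on chromosome 15 with no annotated gene between them over 23.7 kb, and are read in opposite directions. Krt8 spans 101996698 to 102004482 on the minus strand and Krt18 spans 102028180 to 102032027 on the plus strand (GRCm38, GENCODE M21). A gene on the opposite strand, Gm36026, overlaps Krt8 and was counted by itself. The bases from 250 before to 20 after the start of both, and of Lcn2, are given here because the ratio of haplodeficient to control level had an interval above 1 in the 5 segments from the thin limb on for Krt18 and Lcn2 and in 4 of these for Krt8 (below). They are from RefSeq on GRCm38.p6, in the direction of transcription, with matches to the TATA motif (TATAAA, searched on both strands) in capitals. The RefSeq starts used lie inside the GENCODE spans of these genes and not at their ends.
Krt8 (chr15:102004323-102004592, minus strand): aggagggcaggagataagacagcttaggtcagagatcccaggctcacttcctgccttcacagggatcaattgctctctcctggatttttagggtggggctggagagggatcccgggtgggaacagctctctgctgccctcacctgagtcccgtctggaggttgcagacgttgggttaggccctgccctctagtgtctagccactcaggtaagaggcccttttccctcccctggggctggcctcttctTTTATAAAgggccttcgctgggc
Krt18 (chr15:102027966-102028235, plus strand): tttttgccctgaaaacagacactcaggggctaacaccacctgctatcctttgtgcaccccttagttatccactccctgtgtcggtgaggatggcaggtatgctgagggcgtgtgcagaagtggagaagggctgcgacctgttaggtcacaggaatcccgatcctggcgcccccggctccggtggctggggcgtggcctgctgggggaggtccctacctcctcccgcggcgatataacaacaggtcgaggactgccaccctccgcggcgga
Lcn2 (chr2:32387720-32387989, minus strand): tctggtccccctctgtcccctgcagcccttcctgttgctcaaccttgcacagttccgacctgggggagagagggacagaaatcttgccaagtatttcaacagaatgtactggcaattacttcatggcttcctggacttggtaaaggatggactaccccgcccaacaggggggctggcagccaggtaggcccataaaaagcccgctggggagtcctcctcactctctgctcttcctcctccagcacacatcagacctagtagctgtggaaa
The Krt8 window held 1 stretch that matched on both strands, and the motif was in 12.9% of 32851 promoter windows of this length. Its matches in Krt8 began at -3 and -1 from the RefSeq start, so that they overlap that start. AP-1 (TGANTCA, in 7.23% of windows) and hypoxia response core (ACGTG, in 17.9%) letters were not in any of these 3 windows. Promoter windows were found for 7 of the 10 genes. Among the others ACGTG was in the window of Dcdc2a and in 2 of the 3 windows of Havcr1, and TGANTCA in 1 window of Havcr1. TATAAA was in the window of Krt20, beginning at -29 from its RefSeq start. These are matches of letters and say nothing of binding.

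Krt8 stood far above free RNA in every segment, which would give at most 5.90% of its level, and Krt18 did so from the thin limb on. Krt8 ran from 165 CPM in early proximal tubule-like to 1058 CPM in thin limb-like control cells, a range of 6.43-fold, and from 474 to 1491 CPM, a range of 3.15-fold, in the haplodeficient library. Krt18 was 927 and 970.4 CPM in thin limb-like and 1009 and 1894 CPM in principal-like cells. In proximal tubule-like control cells it was 7.24 (early) and 6.35 CPM (late), of which free RNA would give 70.5% and 89.5%. In the haplodeficient library it was 29.3 and 49.4 CPM there, of which free RNA would give 49.9% and 18.2%. The Havcr1-led cluster had more of both than early proximal tubule-like cells, with Krt8 at 399.9 and 619 CPM and Krt18 at 62.2 and 169 CPM. Of these classes Krt19 was highest in the Psca-led cluster (401 and 426 CPM) and, of the segments, in principal-like cells (279 and 416 CPM), and was at or below the free RNA level in proximal tubule-like cells. Krt20 reached 10 CPM in thin limb-like cells (14.8 and 10.4 CPM) and in the Havcr1-led cluster (62.6 and 41.3 CPM), and it had at most 28 UMIs in any other segment.

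Of the 7 segments, Sox9 and Dcdc2a were highest in distal convoluted tubule-like cells and Sox4 in intercalated-like cells. Sox9 was 234 and 198 CPM there, followed by thin limb-like (129 and 86.3 CPM) and thick ascending limb-like cells (74.3 and 55.9 CPM). The Havcr1-led cluster had 179 and 169 CPM, against 21.8 and 40.5 CPM in early proximal tubule-like cells. Sox4 lay between 469 and 626 CPM over the 5 classes from the thin limb on in the control library, and between 321 and 843 CPM in the haplodeficient one. It was 15.7 and 11.5 CPM in late proximal tubule-like cells. Dcdc2a followed the order distal convoluted tubule (444 and 372 CPM), thin limb (373 and 297 CPM), thick ascending limb (279.5 and 273 CPM), principal (187 and 164 CPM) in both libraries, with no neighbours among these 4 overlapping.

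The libraries were compared within each segment as the ratio of CPM, haplodeficient over control. To be eligible a gene had to average 10 CPM or more over the libraries and to have 30 UMIs in both together. It was called higher or lower where it differed by 2-fold or more and the 95% interval of the ratio excluded 1. Of 70 pairs of a gene and a segment, 58 were eligible, 10 were called higher and 1 lower. In 4 of the 58 only the haplodeficient level reached 10 CPM, namely Lcn2 and Krt18 in both proximal classes. These pairs had to be higher to be eligible, and 3 of them are among the 10.

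Early proximal tubule-like cells had the most calls. Krt8 was 165 CPM in the control and 474 CPM in the haplodeficient library, a ratio of 2.88 (95% interval 2.72 to 3.05). Dcdc2a was 13.7 and 37.4 CPM (ratio 2.72, 2.21 to 3.34), Havcr1 24.4 and 57.1 CPM (ratio 2.34, 1.98 to 2.75) and Sox4 48.8 and 102 CPM (ratio 2.09, 1.85 to 2.36). Krt18 was called as well, at 7.24 and 29.3 CPM, levels of which free RNA would give 70.5% and 49.9%. In all, 5 of the 8 eligible members were called higher and 0 lower, where 2.98% of 7896 eligible genes were called higher and 0.874% lower. The median log2 ratio of the 8 was 1.15, beside 0.23 for all eligible genes. Krt18, which was called, and Lcn2, which was not, reached 10 CPM in the haplodeficient library only and had to be higher to be eligible. The count and the median include them. Sox9 was below 2-fold (21.8 and 40.5 CPM, ratio 1.86, 1.54 to 2.24).

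Of the 5 genes called, Krt8 and Krt18 stayed over the 2-fold line (a log2 ratio of 1) in all 15 other settings tried. Havcr1 was under it in 9 of 15, at 0.36 with the Havcr1-led cluster added and 0.31 with at least 1000 UMIs per cell, against 1.22 as reported. Sox4 was under it in 11 of 15, down to 0.49. Dcdc2a was under it in 2 of 15, at 0.49 with a mitochondrial limit of 25% and 0.73 at a finer clustering. With that mitochondrial limit 2 of 8 eligible members were called. Mitochondrial UMIs were 24.5% of the median control and 6.98% of the median haplodeficient cell of this class. Without them in the total 3 of the 8 were called. Neutrophil marker genes summed to 1.12 and 34.3 CPM (5 of 6 detected in both libraries, Cxcr2 at 0) and macrophage markers to 14.3 and 60.8 CPM (7 of 7). The part of cells or RNA of these types, and of mitochondrial RNA, in the ratios was not tested.

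Late proximal tubule-like cells, 50 of them haplodeficient, had the same keratins called. Krt8 was 232 and 644 CPM (ratio 2.77, 2.49 to 3.08), and Krt18 was 6.35 and 49.4 CPM (ratio 7.79, 4.99 to 11.8), the latter from 96 and 30 UMIs. Lcn2 was also called (9.92 and 21.4 CPM), on 13 haplodeficient UMIs and at the free RNA level, and without the Slc7a12 cluster its log2 ratio was -0.022. It was under the 2-fold line in 8 of 11 other settings. Krt8 was under it in 2 of 12, at 0.49 with a mitochondrial limit of 25% and 0.78 at a finer clustering, and Krt18 in 0 of 12. Havcr1 was 61.9 and 104 CPM (ratio 1.68, 1.28 to 2.17) and was not called. The Slc7a12 cluster, highest in Havcr1, was 84 of 1119 control and 10 of 50 haplodeficient cells. Within that cluster Havcr1 was lower in the haplodeficient library (above). The part of this mix of clusters in the ratio was not tested. Of 8 eligible members 3 were called higher, where 5.67% of 7701 eligible genes were called higher and 1.79% lower. The members' median log2 ratio was 0.68, beside 0.21 for all eligible genes. Krt18 and Lcn2, both among the 3 called, reached 10 CPM in the haplodeficient library only and had to be higher to be eligible. The count and the median include them. Mitochondrial UMIs were 19.4% of the median control and 6.26% of the median haplodeficient cell of this class. Neutrophil markers summed to 0.529 and 14.8 CPM (5 of 6 detected in both, with Retnlg at 0 in the control and Cxcr2 at 0 in the haplodeficient library) and macrophage markers to 32.6 and 114 CPM (7 of 7). The part of these in the ratios was not tested.

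In thin limb-like cells the members parted. Havcr1 stood at 163 CPM in control and 64.6 CPM in haplodeficient cells (ratio 0.397, 0.357 to 0.441), the one pair called lower. Lcn2 was higher, at 1777 against 869 CPM (ratio 2.05, 1.98 to 2.11), and was called. Over all eligible genes 0.73% were called higher and 1.52% lower. Krt19 was 174 and 292 CPM (ratio 1.67), Sox4 469 and 321 CPM (ratio 0.685), and Sox9 129 and 86.3 CPM (ratio 0.671), each with an interval that excluded 1. Krt8 was alike in both, at 1058 and 1052 CPM, with an interval of the ratio of 0.962 to 1.03. Of the 10 members, all eligible here, 4 had intervals above 1 and 5 below it. Havcr1 kept its direction in all 14 other settings and was under 2-fold in 4 of them, at -0.60 to -0.73 on the log2 scale against -1.33. These were at least 1000 UMIs per cell, a mitochondrial limit of 25%, doublets kept and a finer clustering. Lcn2 was under 2-fold in the same 4 and when each barcode was assigned by its markers alone, at 0.51 to 0.94 against 1.03. Neutrophil markers summed to 1.71 and 56.2 CPM in this class (6 of 6 detected in both) and macrophage markers to 82.4 and 76.6 CPM (7 of 7). The part of both was not tested.

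From the thick ascending limb to the collecting duct, Lcn2, the keratins, Clu and Sox4 were higher in the haplodeficient library by less than 2-fold in most pairs. Lcn2 in thick ascending limb-like cells, at 813 and 1685 CPM (ratio 2.07, 2.02 to 2.13), was the one call. It was under 2-fold in 8 of 15 other settings, with a log2 ratio of 0.23 to 0.96 there against 1.05, the lowest with each library clustered alone. Neutrophil markers in this class summed to 0.923 and 5.32 CPM (3 and 6 of 6 detected, with Csf3r, Cxcr2 and Retnlg at 0 in the control), and their part was not tested. In the same class 1.28% of eligible genes were called higher and 1.31% lower. Lcn2 had ratios of 1.98 (1.94 to 2.02) in distal convoluted tubule-like, 1.66 (1.63 to 1.69) in principal-like and 1.56 (1.52 to 1.59) in intercalated-like cells, where 0 members were called and 1.27%, 1.25% and 0.746% of eligible genes were called higher and 1.12%, 1.85% and 1.13% lower. Krt18 had ratios of 1.74, 1.89, 1.88 and 1.60, Krt8 of 1.91, 1.51, 1.496 and 1.36, and Clu of 1.40, 1.45, 1.49 and 1.37 in these 4 classes in the same order. With each library clustered alone, Krt18, Krt19 and Clu in thick ascending limb-like cells turned to log2 ratios of -0.19, -0.80 and -0.50. Of the 32 eligible pairs of these 4 classes, 25 had an interval above 1.

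Sox9 had an interval below 1 in 2 of the same 4 classes and Dcdc2a in 3. Sox9 was 74.3 and 55.9 CPM in thick ascending limb-like cells (ratio 0.753, 0.680 to 0.833) and 234 and 198 CPM in distal convoluted tubule-like cells (ratio 0.845, 0.782 to 0.913), whereas its ratio was 1.19 (1.013 to 1.39) in principal-like and 0.908 (0.774 to 1.07) in intercalated-like cells. The direction of Sox9 turned under 3 other settings in principal-like and under 6 in intercalated-like cells. Dcdc2a was 109 and 71.0 CPM in intercalated-like cells (ratio 0.650, 0.591 to 0.716) and had ratios of 0.839 and 0.877 in distal convoluted tubule-like and principal-like cells, with intervals below 1, beside 0.976 (0.929 to 1.02) in thick ascending limb-like cells. The median log2 ratio of the 8 eligible members was 0.54 in thick ascending limb-like, 0.52 in distal convoluted tubule-like, 0.58 in principal-like and 0.44 in intercalated-like cells, beside 0.12, 0.09, 0.03 and 0.01 for all eligible genes. For thick ascending limb-like cells that median was 0.021 when each barcode was assigned by the 7 markers alone, and 0.011 when the Psca-led cluster was added.

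**Figure D3:**
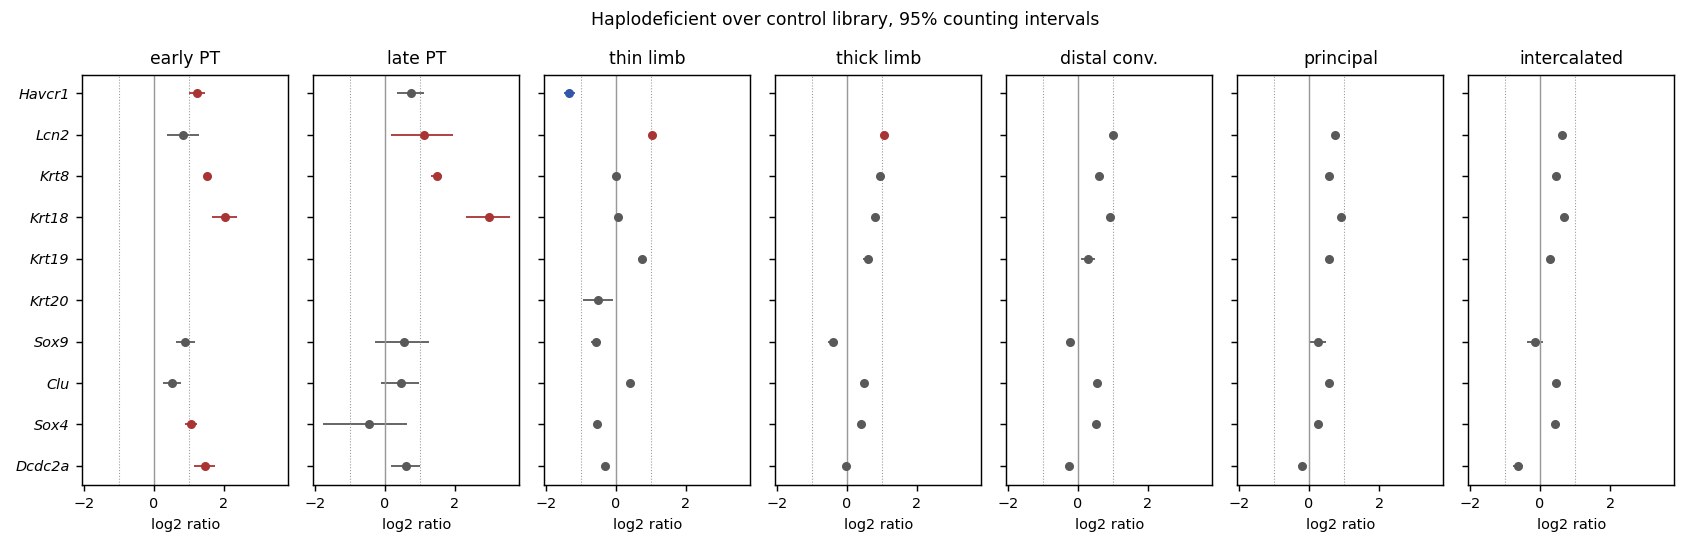
Log2 ratio of CPM, haplodeficient over control (x axis), of each eligible gene (y axis) in 7 segments, with 95% counting intervals; red points were called higher, blue points lower, and dotted lines mark 2-fold. Red points lie mainly in early and late proximal tubule-like cells, and the 1 blue point is Havcr1 in thin limb-like cells at -1.33.

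The unnamed clusters differed in which members were apart. In the Havcr1-led cluster Havcr1 itself was 883 CPM in the control and 541 CPM in the haplodeficient library (ratio 0.613, 0.584 to 0.642). Krt18 (62.2 and 169 CPM), Lcn2 (55.4 and 138 CPM), Clu (164 and 329 CPM) and Krt19 (3.16 and 18.0 CPM) were called higher there. Krt19 reached 10 CPM in the haplodeficient library only and had to be higher to be eligible. With it 4 of 10 members were called, with 0.984% of eligible genes called higher and 1.21% lower. Clu was under 2-fold in 2 of 7 other settings, at log2 ratios of 0.96 and 0.98. Neutrophil markers summed to 3.28 and 34.3 CPM in this cluster (5 and 6 of 6 detected, Retnlg at 0 in the control), and their part was not tested. Free RNA would give 26.1% and 23.8% of the Lcn2 level, 24.0% and 19.3% of the Clu level and 65.8% and 19.0% of the Krt19 level. Krt20 (62.6 and 41.3 CPM, ratio 0.660) and Sox4 (372 and 261 CPM, ratio 0.702) had intervals below 1. In the Psca-led cluster 0 of 9 eligible members were called, where 0.651% of eligible genes were called higher and 1.29% lower. Sox9 was furthest from 1 there, at 97.4 and 57.8 CPM (ratio 0.594, 0.519 to 0.677).

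Shares of cells with a UMI were compared at equal depth. Each cell was thinned to 1000 UMIs, and 1808 control and 319 haplodeficient early proximal tubule-like cells were deep enough, 166 and 26 being left out. Krt8 was found in 13.9% and 31.0% of these cells (56.2% and 65.8% before thinning), and in 1.08% and 0.905% of macrophage-like cells, which should lack it. Median depth before thinning was 9694 and 6213 UMIs in the former class and 4800.0 and 5369 UMIs in the latter. Havcr1 was found in 1.60% and 3.45% of early proximal tubule-like cells, in 8.67% and 4.92% of thin limb-like cells, in 39.4% and 29.3% of the Havcr1-led cluster and in 0.135% and 0.0823% of macrophage-like cells. Lcn2 was found in 33.7% and 67.1% of thick ascending limb-like and in 47.1% and 73.7% of principal-like cells, beside 1.89% and 1.89% of macrophage-like cells. In early proximal tubule-like cells Lcn2 was found in 1.33% and 1.25%, below the macrophage-like share in both libraries.

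Several markers were found in the same cell in the distal nephron and seldom in the proximal tubule. At 5000 UMIs per cell, 5 or more of the 10 genes were found in 72.2% of control and 92.5% of haplodeficient principal-like cells, and in 42.7% and 76.3% of thick ascending limb-like cells. The shares were 59.4% and 82.4% in distal convoluted tubule-like, 56.8% and 74.5% in intercalated-like and 73.5% and 75.6% in thin limb-like cells. The Havcr1-led cluster had 33.1% and 46.4%, and early proximal tubule-like cells 0.379% of 1320 and 3.09% of 194. In the latter class none of the 10 genes was found in 37.5% of control and 17.0% of haplodeficient cells.

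**Figure D4:**
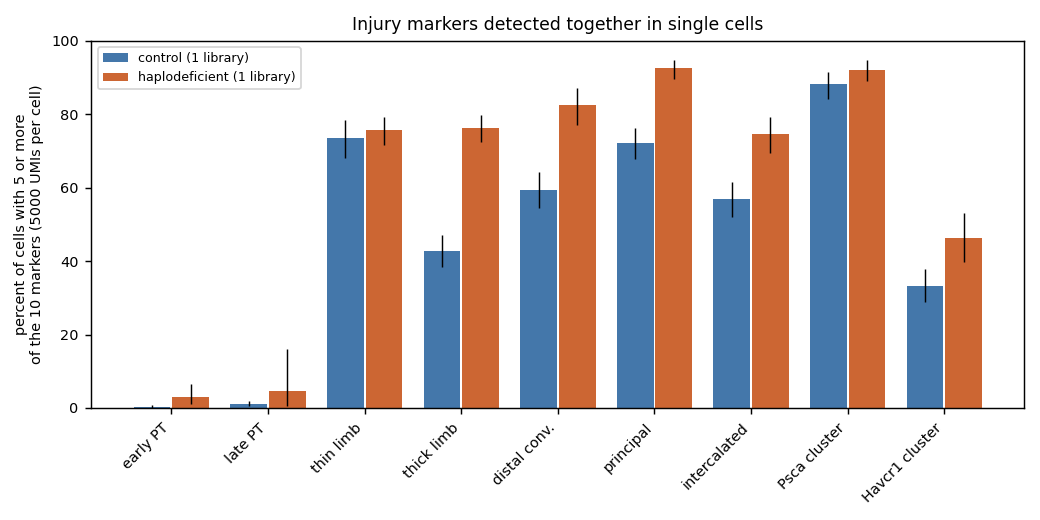
Share of cells (y axis, percent) in which at least 5 of the 10 genes had a UMI after thinning each cell to 5000 UMIs, by class (x axis) and library; black bars are exact 95% binomial intervals of the cells counted. The bars of the haplodeficient library stand above those of the control in the thick ascending limb, distal convoluted tubule, principal and intercalated classes, and proximal classes are below 5% in both.

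In some classes Havcr1-positive cells differed in what else they held. Among early proximal tubule-like control cells thinned to 5000 UMIs, Dcdc2a was found in 21.1% of 71 cells with Havcr1 and in 4.16% of 1249 cells without it, and Sox9 in 15.5% of 71 and 3.28% of 1249 of the same cells. In haplodeficient cells of this class Sox9 was found in 26.9% of 26 with and 5.36% of 168 without Havcr1. In thin limb-like control cells Krt19 was found in 14 of 70 cells with Havcr1 and in 47.1% of 221 without it. Krt20 was the reverse, found in 14.3% of 70 and 2.71% of 221 of them. In haplodeficient thin limb-like cells Krt19 was found in 36.5% of 85 with and 51.6% of 415 without Havcr1. Krt20 was found in 7.06% and 3.61% of these, and the intervals overlapped for both genes. In the Havcr1-led cluster Sox9 was alike with and without Havcr1, at 37.9% and 37.7% (control) and 37.5% and 37.0% (haplodeficient). Cells of 1 library share its animals and its free RNA, so that these shares describe that library.

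The wider lists of genes were uneven along the nephron as well. Of 26 other genes of injured tubule, 20 were eligible in early proximal tubule-like cells and 12 were called higher and 0 lower. Their median log2 ratio was 1.37, beside 0.23 for all eligible genes. The 2 with the highest ratios were S100a6, a calcium-binding protein gene (11.2 and 257 CPM), and the filament gene Vim (2.89 and 60.2 CPM), which reached 10 CPM in the haplodeficient library only. The 2 with the lowest were Prom1, a stem cell surface marker (116 and 107 CPM), and Spp1, which encodes osteopontin (5757 and 7135 CPM). How many of the 12 besides Vim reached 10 CPM in the haplodeficient library only was not counted. In late proximal tubule-like cells 6 of 19 were called higher, in thick ascending limb-like cells 4 of 22 higher and 1 lower (among them the receptor gene Tnfrsf12a at 44.8 and 115 CPM, the lectin gene Lgals3 at 718 and 1568 CPM, and, lower, the growth factor gene Pdgfb at 22.5 and 9.90 CPM), in principal-like cells 2 of 23 higher and in intercalated-like cells 1 of 23 higher and 2 lower. In thin limb-like cells 0 of 26 were called higher and 1 lower, and in distal convoluted tubule-like cells 0 of 24 higher and 1 lower. Over all eligible genes the shares called higher were 2.98% in early and 5.67% in late proximal tubule-like, and 0.73% in thin limb-like cells. They were 1.28% in thick ascending limb-like, 1.27% in distal convoluted tubule-like, 1.25% in principal-like and 0.746% in intercalated-like cells. The shares called lower were 0.874%, 1.79%, 1.52%, 1.31%, 1.12%, 1.85% and 1.13% in these 7 classes in the same order. S100a6 and Vim are also expressed by leukocytes, whose marker sums are given above for early proximal tubule-like cells.

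Genes that cell dissociation switches on stood higher in proximal tubule-like cells and, with none called, in thick ascending limb-like cells. Of 15 eligible dissociation stress genes 8 were called higher in early proximal tubule-like cells (median log2 ratio 1.03), the highest being Atf3 (68.6 and 246 CPM) and Hspb1 (10.3 and 59.1 CPM) and the lowest Ier2 (104 and 98.2 CPM) and Ier3 (121 and 115 CPM). In late proximal tubule-like cells 9 of 16 were called higher (median 1.17), and in thin limb-like cells 0 of 17 (median -0.12). Over all eligible genes 2.98% (median 0.23) were called higher in early and 5.67% (median 0.21) in late proximal tubule-like cells. In thick ascending limb-like cells 0 of 17 were called, but 16 had a ratio above 1. Their median was 0.65, beside 0.54 for the members and 0.12 for all eligible genes. The medians were 0.093 in distal convoluted tubule-like, 0.024 in principal-like and 0.16 in intercalated-like cells. The part of dissociation stress genes in the members' ratios was not tested.

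Genes of NF-kappaB and the acute phase were called in 5 of the 7 segments, at most 3 in each. Over all eligible genes 0.73% to 5.67% were called higher and 0.874% to 1.85% lower in a segment. In early proximal tubule-like cells 1 of 12 was higher, the transcription factor gene Cebpb (47.2 and 118 CPM). In late proximal tubule-like cells 2 of 9 were lower, the adhesion molecule gene Icam1 (76.5 and 26.4 CPM) and C3 (94.9 and 19.8 CPM). In principal-like cells 3 of 13 were higher, the chemokine genes Ccl20 (11.7 and 126 CPM), Cxcl2 (77.0 and 354 CPM) and Cxcl1 (46.4 and 110.3 CPM). In thin limb-like cells Ccl20 and Cxcl2 were called higher and Ccl2 lower (159 and 56.3 CPM), of 14 eligible. In intercalated-like cells 2 of 13 were higher and the complement gene C3 lower (19.98 and 4.43 CPM). Of 10 other keratins none was called in the 7 segments, and Krt80 was 35.3 and 59.1 CPM in principal-like cells. Of 12 developmental tubule genes none was called in a segment.

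Transport and identity genes of the segments had median ratios below 1 in all 7 segments. They are the marker lists by which clusters of both libraries together were named, the fixed markers among them. Their levels are therefore not independent of how the classes were chosen. Over all eligible genes 0.874% to 1.85% were called lower in a segment, and median log2 ratios lay between -0.029 and 0.23. In distal convoluted tubule-like cells 4 of 7 were called lower and the median log2 ratio was -1.41, with the calcium buffer gene Pvalb at 172 and 23.1 CPM and Abca13 at 1064 and 173 CPM lowest. In principal-like cells 3 of 8 were called lower, the water channel genes Aqp2 and Aqp3 (321 and 45.2 CPM) and Apela. Egf, a growth factor gene of the thick ascending limb, was 1838 and 448 CPM in thick ascending limb-like cells, where it and Ppp1r1b (59.2 and 25.2 CPM) were the 2 of 8 called lower. In early proximal tubule-like cells 2 of 8 were called lower, Slc22a8 (336 and 94.8 CPM) and Slc6a19 (460.2 and 221 CPM), transporters of organic anions and of neutral amino acids. Over the 7 segments 1 such gene was called higher, Slc22a13 in late proximal tubule-like cells.

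The members' levels were correlated over the 14 points of 7 segments in 2 libraries, on the log2 scale of CPM after adding 1. Pearson's r was 0.95 between Lcn2 and Clu, 0.94 between Lcn2 and Krt19 and 0.94 between Krt8 and Krt18. It was 0.82 between Sox9 and Dcdc2a, 0.70 between Havcr1 and Krt20, and -0.77 between Havcr1 and Clu. Other pairs were close as well, with 0.93 between Krt18 and Krt19, 0.92 between Lcn2 and Krt18 and 0.79 between Lcn2 and Dcdc2a. The pairs named are therefore not separate groups. Of 11040 genes compared, those most like Havcr1 were Agt (0.96), Serpina10 (0.96) and Ptprk (0.95), and those most like Lcn2 were Rab25 (0.99), Capn5 (0.99) and Mier1 (0.99). Hspa4, Zfp386 and Actg1 (0.97 each) were most like Krt8, Morf4l2, 1810030O07Rik and Afdn (0.98 each) most like Krt18, and Slc35f5, Atp10b and Ephb6 (0.99 each) most like Clu. The genes most like Sox9 were Hmgcll1 (0.93), Ank2 (0.93) and Ccnd2 (0.89). The points share 2 libraries, their depth and free RNA, and the coefficients are a description only.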

How the data were processed

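The deposited files held raw UMI counts per gene and barcode for every barcode, with no filter and no normalization; per the file headers the authors ran Cell Ranger version 4, on mm10 per the submitters' processing notes. The kit was a 3′ droplet chemistry, per the labels' protocols, so a count is of transcripts and not of their length. Of 32285 gene identifiers 32235 matched GENCODE M21 on GRCm38, from which positions were taken. Cells were barcodes with at least 500 UMIs, 200 genes and at most 50% mitochondrial UMIs. The highest Scrublet scores (scanpy 1.11.5), at 0.8% per 1000 cells, were removed as doublets, 715 and 804 cells. Both libraries were clustered together without the 10 members, on 2000 variable genes, 30 components and 15 neighbours, with the Leiden method (leidenalg 0.10.2) at resolution 1, into 37 clusters. A class needed 3 markers found in 10% of a cluster's cells at 2-fold, its fixed segment marker among them, and 7 clusters stayed unnamed. The cell names are rebuilt and may differ from the study's.

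UMIs were summed per class and library. CPM have exact Poisson intervals, ratios exact conditional binomial intervals and shares exact Clopper-Pearson intervals, at 95%, for counting error only. A class needed 50 cells per library, and a count of 0 UMIs in an eligible gene was set to a floor of 3 UMIs. The share of free RNA was the median of observed over expected UMIs of markers of other classes. The script for calls was tested on simulated data. Genes named were the 10 members, the 3 genes most like a member, and from each other list the 2 highest and 2 lowest ratios in the segment described. Other listed genes, named where 5 or fewer were called, were chosen after their values were seen. The members, the gene lists and the alternatives were chosen with earlier results of these data known. Cell-hashing reads, mentioned in the protocols, were not used here.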

Additional observations from a re-analysis of the deposited data

Results flagged for a closer look

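Havcr1 went in opposite directions in 2 segments. Its log2 ratio, haplodeficient over control, was 1.22 in early proximal tubule-like cells (24.4 and 57.1 CPM) and -1.33 in descending thin limb-like cells (163 and 64.6 CPM). With 1 library per group the difference between the segments was not tested. In the Havcr1-led cluster the log2 ratio was -0.71. The values in the 2 segments under other settings are given below.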

How the results depend on the processing

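With 1 library per group no replicate could be left out, and the samples are not paired. No paired analysis was possible because each group has 1 sample. Of 942 values of a member in a class under another setting, 588 stayed within the counting interval of the reported value and 353 did not. 1 more, called in the report, changed sign: Lcn2 in late proximal tubule-like cells, at -0.022 without the Slc7a12 cluster. In all, 47 values changed sign, in 20 of 77 pairs of a member and a class. Beside Lcn2 these were Clu (-0.10) in early and Havcr1 (-0.20), Sox9 (-0.11) and Sox4 (up to 2.15) in late proximal tubule-like cells. In thin limb-like cells they were Krt8 (up to 0.12), Krt18 (down to -0.053), Krt20 (up to 0.97) and Clu (-0.13). In thick ascending limb-like cells they were Krt18 (-0.19), Krt19 (-0.80), Clu (down to -0.50) and Dcdc2a (up to 0.15). In principal-like cells they were Krt19 (-0.13), Sox4 (-0.028), Sox9 (down to -0.28) and Dcdc2a (0.13), in distal convoluted tubule-like cells Sox9 (0.045) and Dcdc2a (0.024), and in intercalated-like cells Sox9 (up to 0.28). Medians are log2 ratios of the eligible members. With each barcode assigned by the 7 markers alone they were 0.021 (thick ascending limb), 0.65 (principal) and 0.30 (intercalated), with 2 pairs called lower. With doublets kept they were 0.48 (principal) and 0.49 (intercalated), with 0 pairs called lower. A mitochondrial limit of 25% gave 0.54 (early proximal), 0.28 (thick ascending limb), 0.38 (distal convoluted), 0.46 (principal) and 0.39 (intercalated), with 6 pairs called higher and 0 lower. A minimum of 1000 UMIs gave 1.43 (late proximal) and 0.31 (thick ascending limb), with 0 lower. A UMI minimum per library gave 0.58 (distal convoluted) and 0.51 (principal). At resolution 2 the medians were 0.75 (early proximal), 1.63 (late proximal) and 0.36 (principal), with 0 lower. With each library clustered alone they were 3.80 (early proximal), -0.20 (thick ascending limb, a change of sign), 0.23 (principal) and 0.48 (intercalated). Median-of-ratios scaling gave 0.92 (early proximal), 0.42 (thick ascending limb) and 0.43 (distal convoluted), with 6 called higher. An eligibility minimum of 50 CPM gave -0.0091 (thin limb) and 5 called higher, from fewer genes eligible. With every cell weighted alike they were 0.82 (thick ascending limb), 0.68 (distal convoluted), 0.46 (principal) and 0.39 (intercalated). Of 4 settings added after seeing the data, leaving mitochondrial UMIs out of the total gave 0.91 (early proximal), 0.37 (thick ascending limb), 0.39 (distal convoluted), 0.49 (principal) and 0.36 (intercalated), with 6 called higher, and adding the Psca-led cluster gave 0.011 (thick ascending limb). The causes were not tested. Medians not given here stayed within the members' median counting interval, and counts within 1.5 times the reported count. Late proximal tubule-like cells were too few (under 50 haplodeficient) with doublets kept, by markers alone and with each library clustered alone, so no value was computed there. Over all settings the log2 ratio of Havcr1 ran from 0.31 to 3.80 in early proximal tubule-like and from -1.53 to -0.60 in thin limb-like cells. Depth limits Krt19 and Krt20 in proximal tubule-like cells, with 28 UMIs or fewer, and late proximal values rest on 50 haplodeficient cells.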
